A study of Mus musculus with 10 samples.

Results

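The genes described here are 44 interferon response and antigen presentation genes, read in RNA-seq libraries of the mouse main olfactory epithelium (MOE). They were chosen by name, from a list drawn up with earlier results of these same libraries known. All 44 of them were found among the 24421 rows of the deposited count table, and all 44 passed the filter on low counts among 17197 genes that did. The MOE is the nasal tissue that holds the olfactory sensory neurons. It was taken whole from mice at postnatal day 14. The labels give the strain as C57BL/6, whereas the study describes its mouse lines as of mixed C57BL/6J and 129 background. The study compared mice in which trace amine-associated receptor (TAAR) enhancers 1 and 2, a pair of regulatory elements of the Taar gene cluster, were both intact (wild type, WT, 3 libraries), both deleted on 1 allele (heterozygous, het, 3 libraries) or both deleted on both alleles (homozygous, homo, 4 libraries). The deletions were made by CRISPR-Cas9 in zygotes and are present in every cell of the animal, and no agent was given to any group.

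Interferons are secreted cytokines. Type I and type III interferons are made by cells that sense viral nucleic acid, and interferon gamma, the type II interferon, is made mostly by T cells and natural killer cells. Their receptors activate JAK kinases and STAT proteins. The transcription factors so activated bind DNA elements called the interferon-stimulated response element (ISRE) and the gamma-activated site (GAS). The genes so induced include GTPases that act on intracellular pathogens, antiviral effectors, the immunoproteasome that cuts peptides, the transporters that load these peptides, and the major histocompatibility complex (MHC) proteins that display them. In the nose, an epithelium in contact with inhaled microbes, such genes are expressed by resident immune cells and by epithelial cells.

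Levels are given as CPM, the counts scaled to a library total of 1000000. Total counts ranged from 21423861 to 27712948 over the 10 libraries. As a check of the labels, the summed level of the 14 olfactory Taar genes, the targets of the deleted enhancers, was 34.2 to 36.7 CPM in WT, 30.9 to 36.2 CPM in het and 0.0934 to 0.221 CPM in homo libraries. The tissue label held for its defining markers, since 6 mature olfactory sensory neuron genes summed to 7650 to 9380 CPM in every library. Libraries are named by genotype and replicate number. The p-values below set differences between groups of libraries against the spread between libraries within them. A bulk sample cannot tell fewer cells of a type from less RNA per cell.

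None of the 44 genes was called different between genotypes. What set them apart was variation between mice of 1 genotype. The libraries WT-2, homo-4 and homo-1 were high together in GTPase, chemokine and MHC genes, and WT-1, WT-3, homo-2 and homo-3 were low. For the immunity-related GTPases the het libraries lay in between. For MHC class II they did not: their sums of 87.7 to 118 CPM were level with or below those of WT-1, WT-3, homo-2 and homo-3 (112 to 123 CPM). Chemokines, immunity-related GTPases and guanylate-binding proteins varied most, MHC class I and class II genes less, and genes of peptide loading least. Because the genes were listed with these libraries known, the values by library are a description and carry no test.

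**Figure D1:**
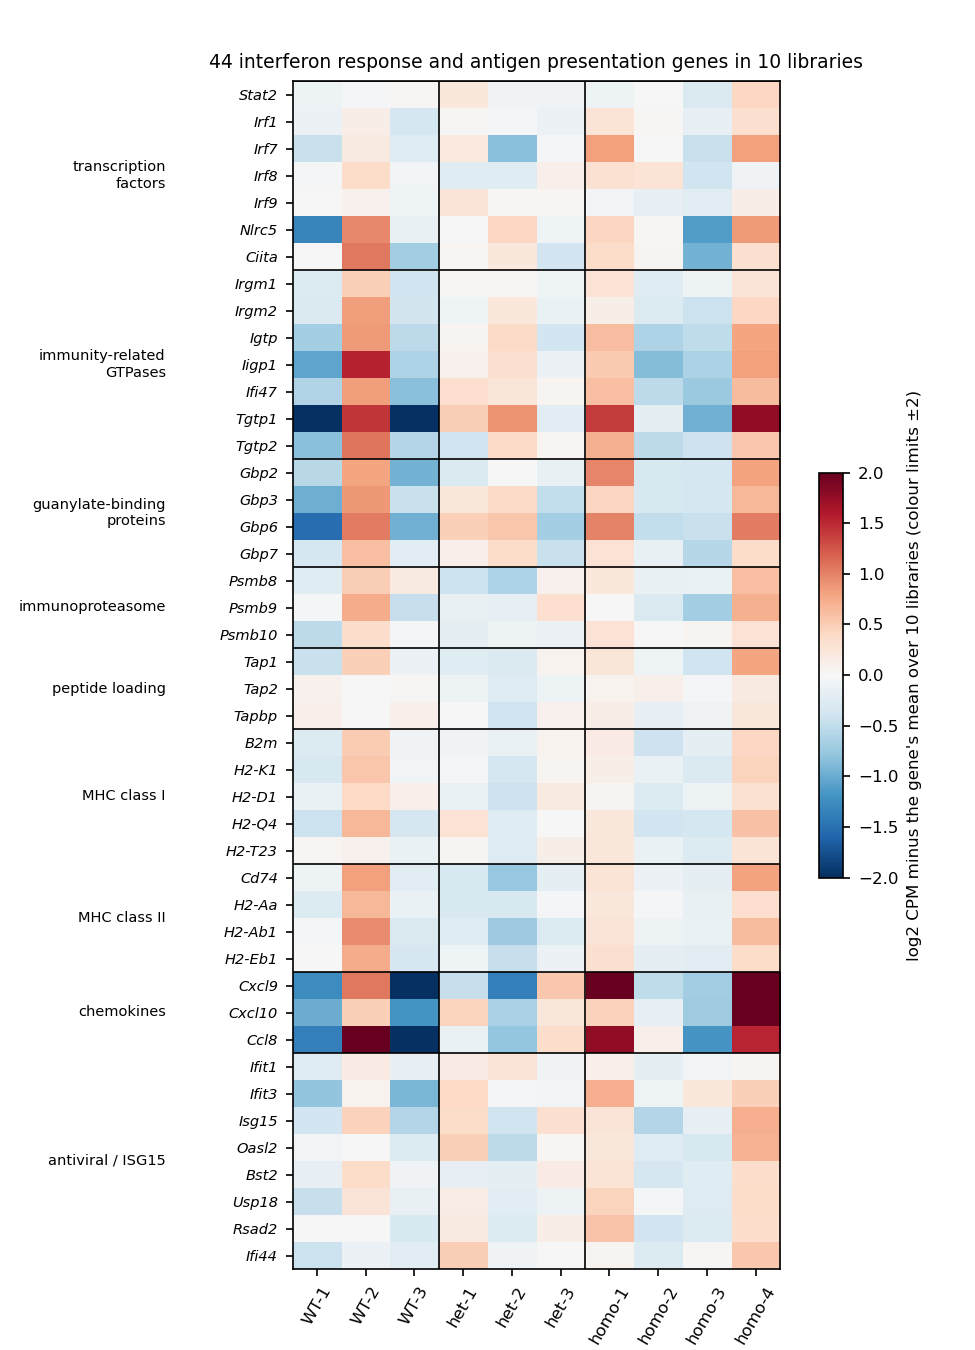
Heat map of the 44 genes (rows, grouped by role) in the 10 libraries (columns, grouped by genotype). Colour gives log2 CPM minus the gene's own mean over the 10 libraries, with colours ending at 2 in either direction; WT-2, homo-1 and homo-4 are red over most rows, and WT-1, WT-3, homo-2 and homo-3 are mostly blue.

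The library WT-2 held the highest CPM of 24 of the 44 genes (54.5%), against 8.05% of all genes tested. Homo-4 held the highest value of 13 genes (29.5%, against 14.7% of all genes) and homo-1 that of 5 (11.4%, against 4.94%). The other 2 genes reached their highest level in het-1 (Irf9) and het-2 (Ifit1), and no member was highest in WT-1, WT-3, het-3, homo-2 or homo-3. At the other end, WT-1 was lowest for 12 genes (27.3%, against 11.2% of all genes tested) and het-2 for 11 (25%, against 17.3%). WT-3 was lowest for 10 (22.7%, against 11.6%), homo-3 for 8 (18.2%, against 9.48%) and homo-2 for 3 (6.82%, against 16.5%). The high libraries thus came from WT and homo mice alike. The share of lowest values was above that of all genes in WT-1, WT-3, homo-3 and, by less, het-2, and below it in homo-2.

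**Figure D2:**
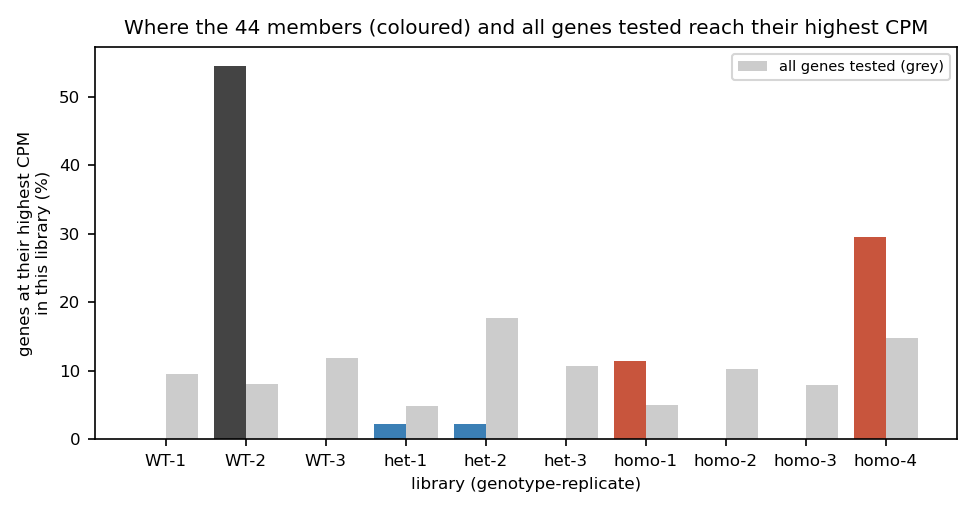
Percent of genes that reach their highest CPM in each library, for the 44 genes (bars coloured by genotype) and for all genes tested (grey bars). WT-2 holds 54.5% and homo-4 29.5% of the 44 genes, against 8.05% and 14.7% of all genes.

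Each library was then compared with the mean of the other libraries of its genotype, on the log2 CPM scale. The median over the 44 genes was 0.87 in WT-2, 0.54 in homo-4 and 0.3 in homo-1. It was -0.43 in WT-1, -0.36 in WT-3, -0.36 in homo-2 and -0.5 in homo-3, and between -0.16 and 0.13 in the het libraries. Because each library is set against the others of its genotype, a high library by itself lowers their values. The negative medians are therefore not separate measurements of low libraries. Over all genes tested the same median lay within 0.0083 of 0 in every library. WT-2 was above the mean of WT-1 and WT-3 for 42 of the 44 genes, and more than 2-fold above it for 16, while 1.38% of all genes tested were that far above. Of the 100 genes with a mean CPM of at least 1 that stood highest in WT-2 by this measure, 16 were members; the number was 9 for homo-4, 8 for homo-1, 1 for het-3 and 0 for the other 6 libraries.

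The spread between mice of 1 genotype was measured as the pooled within-genotype standard deviation (SD) of log2 CPM. Its median was 0.41 over the 44 genes and 0.18 over all genes tested. Low counts widen this spread, so each gene was also set beside the genes in the same of 4 equal classes of mean level. There, 42 members were above the median, 29 above the 90th percentile and 24 above the 95th percentile of their class. The 2 exceptions below the median were Tap2 (SD 0.072) and Irf9 (SD 0.12). By role, the median SD was 1.3 for the chemokines, 0.68 for the immunity-related GTPases, 0.66 for the guanylate-binding proteins, 0.41 for MHC class II, 0.35 for the immunoproteasome, 0.32 for MHC class I and for the antiviral group, 0.27 for the transcription factors and 0.17 for peptide loading.

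**Figure D3:**
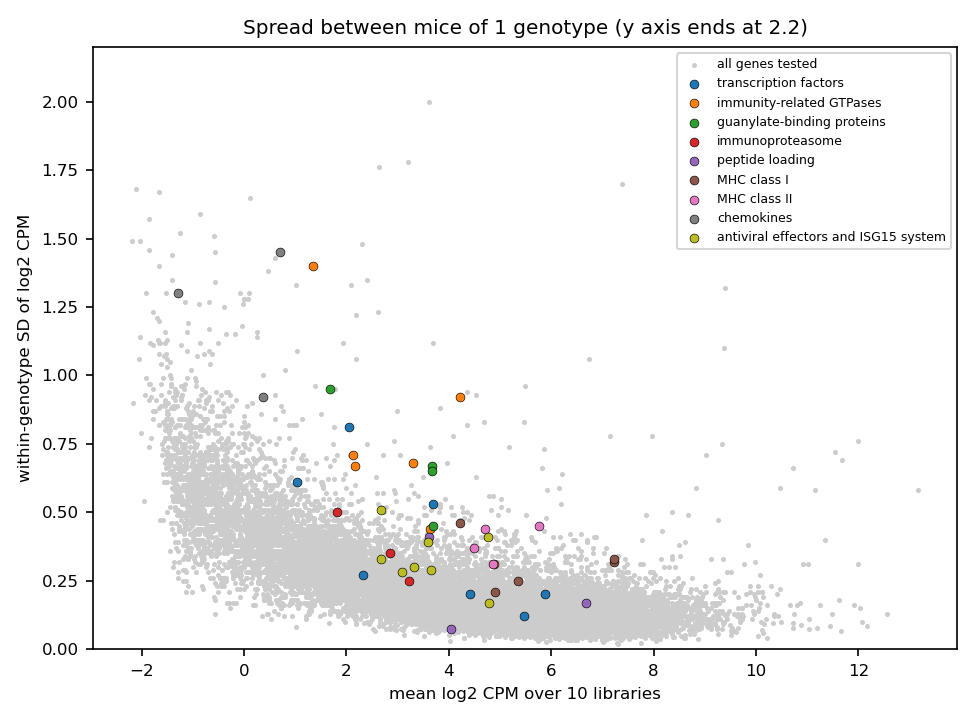
Pooled within-genotype SD of log2 CPM against mean log2 CPM for all genes tested (grey points) and the 44 genes (coloured by role); 10 genes lie above the end of the y axis at 2.2. Chemokines and GTPases sit high among the genes of their level, and Tap2 (0.072) and Irf9 (0.12) sit in the lower part.

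Among the transcription factors, Stat2 and Irf9, subunits of the complex that type I interferon activates, were the most abundant per length of transcript, at a mean of 9.94 and 8.28 CPM per kb of exon. Stat2 (10:128270559-128292849, plus strand) was at 54.3, 57.5 and 59.2 CPM in WT, 67.6, 55.8 and 55.7 in het and 54.7, 58.4, 47.9 and 78.0 in homo libraries. Irf9 (14:55603571-55610030) was at 44, 47.2 and 41.6 CPM in WT, 52.9, 45.2 and 45.7 in het and 42.8, 39.5, 38.3 and 48.6 in homo libraries. Both genes overlapped between the genotypes and differed less than 2-fold between any libraries. Irf1, Irf7 and Irf8, further interferon regulatory factors, followed at 5.39, 3.61 and 0.707 CPM per kb. Irf7, which amplifies the type I response, ranged 3.16-fold, from 7.19 CPM in het-2 to 22.7 CPM in homo-4, with 22.6 CPM in homo-1.

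Nlrc5 and Ciita, the transactivators of MHC class I and class II genes, were the least abundant per length, at 0.53 and 0.221 CPM per kb. Ciita (16:10480059-10528418) was at 1.94, 4.07 and 1.21 CPM in WT, 2.02, 2.27 and 1.5 in het and 2.52, 2.03, 1.02 and 2.45 in homo libraries. Nlrc5 ranged 4.92-fold, from 1.61 CPM in WT-1 to 7.9 CPM in WT-2. Both transactivators were therefore highest in the library that was also highest for most of their MHC target genes.

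The immunity-related GTPases, which coat and break open vacuoles that hold intracellular pathogens, summed to 55.6, 158 and 56.6 CPM in WT, 83.2, 95.7 and 74.7 in het and 111, 59.7, 62.4 and 123 in homo libraries. WT-2 stood apart from both other WT libraries, and homo-1 and homo-4 from homo-2 and homo-3, with the 3 het libraries in between. Per length, Igtp and Irgm1 were the most abundant at 5.25 and 5.14 CPM per kb, then Iigp1 (3.72), Irgm2 (3.49), Ifi47 (1.93), Tgtp2 (1.59) and Tgtp1 (1.1). Iigp1 moved most among the abundant ones. Its CPM was 8.97, 54.0 and 12.1 in WT, 19.6, 23.2 and 17.1 in het and 26.6, 10.2, 11.9 and 32.7 in homo libraries, and its raw counts in WT were 240, 1382 and 281.

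Igtp (11:58199556-58207591, plus strand) was at 6.13, 17.7 and 6.83 CPM in WT, 10.1, 12.7 and 7.52 in het and 15, 6.37, 6.86 and 16.9 in homo libraries. Irgm1 (11:48861968-48871683, minus strand), a regulator of the other GTPases, was at 24.4, 40.9 and 22.3 CPM in WT, 29.7, 30.2 and 27.8 in het and 35.9, 24.8, 27.4 and 35.1 in homo libraries. The 2 genes ranked the libraries in a like way, with WT-2, homo-4 and homo-1 as the 3 highest, while the range was 2.9-fold for Igtp and 1.84-fold for Irgm1. Irgm2 ranged from 9.23 CPM in homo-3 to 22.2 CPM in WT-2, and Ifi47 from 2.46 CPM in WT-3 to 7.86 CPM in WT-2.

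Tgtp1 (11:48985327-48994172) and Tgtp2 (11:49057194-49064206), GTPases on the minus strand of chromosome 11, were read with most of their transcript in common. Of their 50-base windows, 81.2% for Tgtp1 and 86.6% for Tgtp2 also occur in another gene, mostly in each other. How the authors' counting treated such reads is not given in the sources used here, so the split between the 2 genes is uncertain. Tgtp1 had 16, 166 and 9 counts in WT, 77, 107 and 51 in het and 135, 48, 29 and 227 in homo libraries. Tgtp2 had 64, 229 and 66 counts in WT, 74, 133 and 108 in het and 150, 67, 76 and 173 in homo libraries. The same 3 libraries were the highest for both genes.

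Promoter windows of 4 of these GTPases are shown because they carry both interferon elements in the same arrangement. The within-genotype SD of these 4 genes was 1.4 for Tgtp1, 0.71 for Tgtp2, 0.68 for Igtp and 0.44 for Irgm2. It was 0.67 for Ifi47 and 1.45 for Cxcl9, whose promoters hold neither element. For Bst2, which holds both in another arrangement, it was 0.29. Whether the elements bear on the spread was not tested. Sequences are from RefSeq promoters on GRCm38.p6, in the direction of transcription, and capitals mark a GAS core (TTCNNNGAA) followed by an ISRE core (GAAANNGAAA) that starts 2 bases after it. For Igtp (chr11:58199499-58199543, plus strand), for Irgm2 (chr11:58214890-58214934, plus strand), for Tgtp1 (chr11:48992302-48992346, minus strand) and for Tgtp2 (chr11:49064261-49064305, minus strand) they read:
Igtp: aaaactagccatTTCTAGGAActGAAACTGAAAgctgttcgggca
Irgm2: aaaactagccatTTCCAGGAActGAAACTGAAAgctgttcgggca
Tgtp1: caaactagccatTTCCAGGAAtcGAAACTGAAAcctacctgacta
Tgtp2: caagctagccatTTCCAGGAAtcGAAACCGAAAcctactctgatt
The first matched base lies 45 bases before the annotated start of Igtp, 75 before that of Irgm2, 88 before that of Tgtp1 and 81 before that of Tgtp2. Igtp and Irgm2 overlap in the annotation on 1 strand, so reads of their shared part cannot be assigned to either with certainty. The promoter of Irgm1 held a pair of overlapping ISRE cores at 30 to 15 bases before its start (chr11:48871423-48871462, minus strand).
Irgm1: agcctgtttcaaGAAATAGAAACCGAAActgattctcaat

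The guanylate-binding proteins, large GTPases that act in defence against intracellular bacteria and parasites, summed to 26.3, 70.8 and 28.5 CPM in WT, 43.3, 50.3 and 31.9 in het and 63.8, 34.1, 30.8 and 65.2 in homo libraries. This is the same order of libraries as for the immunity-related GTPases at the upper end. Gbp2 and Gbp3 were the most abundant per length (5.53 and 4.17 CPM per kb), followed by Gbp7 (2.36) and Gbp6 (0.622). Gbp2 (3:142620602-142638008, plus strand) was at 8.63, 22 and 6.61 CPM in WT, 10.4, 12.8 and 11.5 in het and 24.9, 10.1, 10 and 22.2 in homo libraries. Gbp3 (3:142560026-142573209, plus strand) was at 6.43, 23.1 and 9.29 CPM in WT, 14.8, 16.4 and 9.03 in het and 17.1, 10.2, 9.86 and 20.1 in homo libraries. Gbp2 was highest in homo-1 and Gbp3 in WT-2, and in both genes WT-2, homo-1 and homo-4 were above each of the other 7 libraries. Gbp7 ranged from 8.59 CPM in homo-3 to 19.4 CPM in WT-2. Gbp6 ranged from 1.08 CPM in WT-1 to 6.41 CPM in WT-2, and 70.7% of its 50-base windows recur in other genes, mostly in Gm43302.

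All 3 of the Gbp promoters in the RefSeq table held an ISRE core, read here on the opposite strand. The windows are on the plus strand of chromosome 3, at chr3:142620592-142620625 (Gbp2), chr3:142559987-142560026 (Gbp3, a pair of overlapping matches) and chr3:142530271-142530304 (Gbp7), with the match in capitals and its first base 59, 45 and 53 bases before the start.
Gbp2: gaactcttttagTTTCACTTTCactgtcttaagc
Gbp3: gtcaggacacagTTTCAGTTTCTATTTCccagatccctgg
Gbp7: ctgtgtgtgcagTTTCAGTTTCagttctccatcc

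The immunoproteasome subunits replace the constitutive ones and change which peptides are cut. Psmb10 and Psmb8 were the more abundant per length, at 5.48 and 2.18 CPM per kb, and Psmb9 was at 0.988. Psmb10 (8:105935735-105938444) was at 6.39, 11.7 and 8.95 CPM in WT, 8.03, 8.58 and 8.5 in het and 11.3, 9.15, 9.53 and 11.3 in homo libraries. Psmb8 (17:34197721-34201454) was at 6.02, 10 and 8.08 CPM in WT, 5.31, 4.63 and 7.6 in het and 8.26, 6.41, 6.48 and 10.8 in homo libraries. Both genes were high in WT-2 and homo-4, by less than the GTPases. Psmb9 ranged from 2.16 CPM in homo-3 to 5.75 CPM in WT-2, and it overlaps Tap1 on the opposite strand. The library kit keeps strand, but whether the counting used it is not given in the sources used here.

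Peptide loading genes varied least. Tapbp, which bridges the transporter and MHC class I, was the more abundant per length with 28.4 CPM per kb, and Tap2 and Tap1, the subunits of the peptide transporter, were at 4.33 and 2.31. Tapbp (17:33915899-33929292) was at 109, 101 and 109 CPM in WT, 102, 77.5 and 108 in het and 112, 91.5, 97.7 and 120 in homo libraries. Tap2 (17:34203527-34216321) was at 17.4, 16.4 and 16.6 CPM in WT, 15.2, 13.6 and 15.2 in het and 17.2, 17.5, 16.1 and 18.5 in homo libraries. WT-2 was the lowest of the 3 WT libraries for both genes, the reverse of the GTPases. All 3 het values of Tap2 lay below all WT and homo values. Tap1 did move with the other genes, from 8.93 CPM in WT-1 to 16.9 in WT-2 and 21.2 in homo-4.

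MHC class I held the most abundant of the 44 genes per length. B2m, the light chain of every class I molecule, was at 178 CPM per kb and the heavy chain H2-K1 at 52, followed by H2-D1 (16), H2-T23 (10.4) and H2-Q4 (7.41). B2m (2:122147686-122153083, plus strand) was at 124, 213 and 143 CPM in WT, 143, 136 and 157 in het and 168, 112, 131 and 199 in homo libraries. H2-K1 (17:33996017-34000347) was at 120, 220 and 144 CPM in WT, 145, 118 and 155 in het and 162, 137, 122 and 204 in homo libraries. For both genes WT-2 was the highest library and homo-4 the next. H2-D1 ranged from 30.4 CPM in het-2 to 53.8 in WT-2, H2-Q4 from 13.7 in WT-1 to 29.4 in WT-2, and H2-T23, a nonclassical class I gene, from 24.7 in homo-3 to 36.0 in homo-4. Related class I genes share sequence, at 21.8% of the 50-base windows for H2-Q4, 13.6% for H2-T23, 12.8% for H2-D1 and 9.63% for H2-K1, so values of single class I genes are uncertain to that extent.

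MHC class II molecules present peptides from outside the cell and are made mainly by dendritic cells, macrophages and B cells. Cd74, the chain that guards their groove, was at 34.4 CPM per kb, H2-Eb1 at 12, H2-Ab1 at 10.7 and H2-Aa at 7.81. Cd74 was at 50.8, 96.2 and 46.6 CPM in WT, 44.1, 32.3 and 47.5 in het and 66.2, 50.5, 47.8 and 95.4 in homo libraries. H2-Ab1 (17:34257689-34269419) was at 25.7, 50.5 and 21.3 CPM in WT, 21.8, 15.7 and 21.5 in het and 31.1, 24.3, 23.7 and 40.5 in homo libraries. H2-Eb1 (17:34305867-34316674) was at 22.3, 37.9 and 17.8 CPM in WT, 21.2, 16.3 and 20.7 in het and 28.1, 19.9, 19.4 and 29.0 in homo libraries. H2-Aa ranged from 23.4 CPM in het-2 to 45.8 CPM in WT-2. All 4 class II genes were highest in WT-2 and lowest in het-2.

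The chemokines were among the rarest members and varied most. Cxcl9 and Cxcl10 attract T cells and natural killer cells through the receptor CXCR3, and Ccl8 attracts monocytes and other leukocytes. Cxcl9 (5:92321347-92328079, 0.872 CPM per kb) had 17, 80 and 8 counts in WT, 25, 14 and 54 in het and 206, 24, 22 and 186 in homo libraries. Cxcl10 (5:92346638-92348889, 0.667 CPM per kb) had 16, 42 and 12 counts in WT, 37, 18 and 34 in het and 35, 24, 17 and 141 in homo libraries. Ccl8 (11:82115185-82116799, 0.932 CPM per kb) had 3, 40 and 1 counts in WT, 6, 4 and 9 in het and 21, 7, 3 and 23 in homo libraries. The 3 genes did not agree on 1 highest library: it was homo-1 for Cxcl9, homo-4 for Cxcl10 and WT-2 for Ccl8. The highest library was 27.8-fold above the lowest for Cxcl9 and 9.81-fold for Cxcl10.

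**Figure D4:**
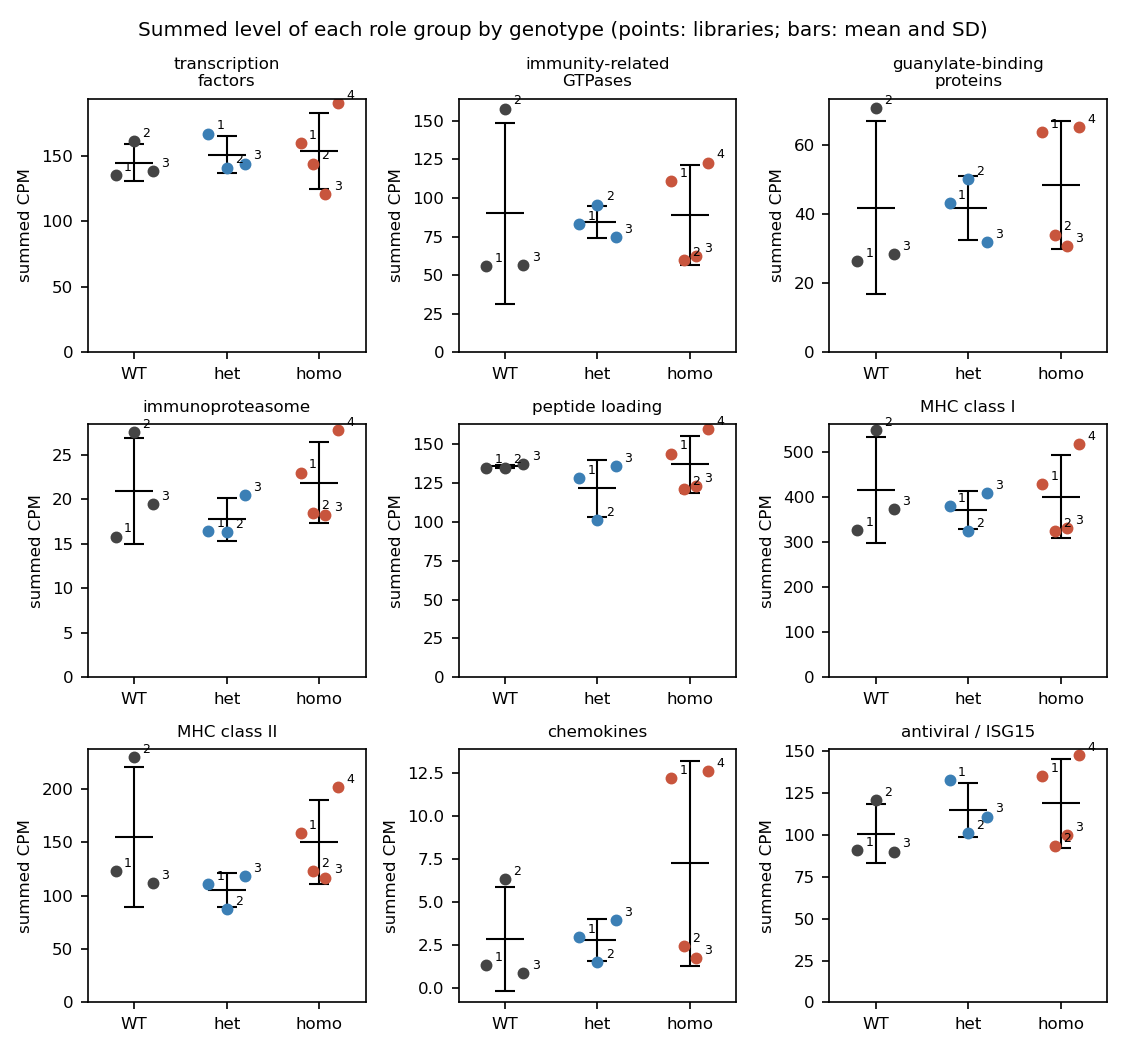
Summed CPM of each role group in every library, by genotype; points are libraries with their replicate number, and bars give the mean and SD. WT-2 lies far above WT-1 and WT-3 for immunity-related GTPases (158 against 55.6 and 56.6 CPM), guanylate-binding proteins and MHC class II, but not for peptide loading.

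The antiviral effectors and the ISG15 system were less uneven than the GTPases. Per length, Bst2, which tethers budding virus, was at 14 CPM per kb, then Ifit1 (10.4), Isg15 (8.71), Ifit3 (7.24), Oasl2 (4.37), Usp18 (3.58), Rsad2 (1.48) and Ifi44 (1.4). Bst2 (8:71534255-71537456, minus strand) was at 11.1, 16.1 and 11.8 CPM in WT, 11.1, 11.0 and 13.9 in het and 15, 9.86, 10.5 and 15.9 in homo libraries. Ifit1 (19:34640871-34650009, plus strand), which binds foreign RNA, was at 22.9, 30.6 and 24.4 CPM in WT, 30.8, 32.8 and 26.2 in het and 29.5, 24.1, 26.4 and 28.4 in homo libraries. Bst2 had the library pattern of the MHC genes, while Ifit1 was nearly level, with a range of 1.43-fold. Isg15, the ubiquitin-like modifier, ranged from 4.15 CPM in WT-3 to 10.4 CPM in homo-4, and Usp18, the enzyme that removes it, from 7.14 CPM in WT-1 to 13.3 CPM in homo-1. Oasl2, Rsad2 and Ifi44 ranged 2.33-fold, 1.93-fold and 1.95-fold, with their highest values in homo-4 (43.6 CPM), homo-1 (9.29 CPM) and homo-4 (12.1 CPM).

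Ifit3, a partner of Ifit1, was the member with the clearest order by genotype. It was at 6.91, 12.5 and 6.31 CPM in WT, 15.7, 11.6 and 11.5 in het and 19.8, 11.3, 14 and 16.6 in homo libraries. WT-1 and WT-3 were below all het and homo libraries, and WT-2 was within their range. Homo libraries had a mean of 15.4 ± 3.65 CPM (SD, n = 4), het libraries one of 12.9 ± 2.36 CPM (SD, n = 3) and WT libraries one of 8.57 ± 3.4 CPM (SD, n = 3). In the edgeR quasi-likelihood fit the log2 fold change was 0.85 (SE 0.24) for homo against WT and 0.59 (SE 0.25) for het against WT, with unadjusted p of 0.00307 and 0.0343 and adjusted p of 1 in both. Without WT-2, homo against WT became 1.22 with an edgeR adjusted p of 0.0434, the only member called in any of the fits that left out 1 library. Of the 50-base windows of Ifit3, 51.2% also occur in its neighbour copy Ifit3b, which was at 2.16 to 3.48 CPM in WT, 2.94 to 3.47 in het and 2.84 to 5.23 in homo libraries (homo against WT 0.52, SE 0.25, edgeR adjusted p 1).

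Promoters of the antiviral genes are shown because Ifit1 and Ifit3 have like elements and unlike patterns across libraries. Both hold 2 separate ISRE cores on the opposite strand, and the one nearer to the start is printed, at chr19:34640792-34640825 (Ifit1) and chr19:34583395-34583428 (Ifit3), plus strand, 85 and 122 bases before the start. Isg15 has 3 overlapping cores at chr4:156200863-156200908 (minus strand), and Bst2 a GAS core that runs into overlapping ISRE cores at chr8:71537575-71537620 (minus strand).
Ifit1: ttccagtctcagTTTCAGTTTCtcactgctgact
Ifit3: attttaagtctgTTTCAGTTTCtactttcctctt
Isg15: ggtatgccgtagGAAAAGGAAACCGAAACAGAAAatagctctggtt
Bst2: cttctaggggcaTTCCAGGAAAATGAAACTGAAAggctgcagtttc

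Of the 44 genes, 36 had a promoter in the RefSeq table, from 250 bases before to 50 after the start. The ISRE core GAAANNGAAA, searched on both strands, was in 17 of these 36 (47.2%), against 3.99% of the 27025 genes in the table. With 1 more base (GAAANNGAAAC) it was in 12 (33.3%), against 0.944%. The GAS core TTCNNNGAA, which is its own reverse complement, was in 9 (25%), against 9.55%. Overlaps between motifs were counted, so that 6 genes held both, 14 held 1 of them and 16 neither. By role the ISRE core was in 5 of 6 immunity-related GTPases, 3 of 3 guanylate-binding proteins, 5 of 7 antiviral genes, 2 of 5 MHC class I genes, 1 of 3 chemokines (Cxcl10), 1 of 5 transcription factors (Stat2), and in none of the promoters of the 3 immunoproteasome, 2 peptide loading and 2 MHC class II genes. A match is only a run of letters, and no match says only that these letters are not in this window. The genes were listed for their known response, so the share describes the list.

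The 44 genes were read in the 3 comparisons between the genotypes, which the study made to find the genes that change when the enhancers are deleted. In homo against WT, 0 of the 44 genes were called by edgeR at an adjusted p under 0.05, against 0.0698% of all genes tested (12 genes), and 1 (Ifit3) had an unadjusted p under 0.05, against 2.41%. In het against WT, 0 were called (0% of all genes), and again 1, Ifit3, had an unadjusted p under 0.05, against 1.92%. In homo against het, 0 were called against 0.0756%, and 1 (Tap2, log2 fold change 0.25, SE 0.11, unadjusted p 0.0335, edgeR adjusted p 0.999) had an unadjusted p under 0.05, against 2.48%. The test over all 3 genotypes called none of the 44, against 0.0698%, and gave an unadjusted p under 0.05 for Ifit3 (0.0106), against 1.98%. DESeq2 and limma also called none of the 44 in any contrast. At these spreads a miss does not show equal levels: for Cxcl9 the log2 fold change of homo against WT was 1.73 with an SE of 1.08.

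The median log2 fold change over the 44 genes was 0.057 for homo against WT (27 genes higher, 17 lower), -0.062 for het against WT (17 higher, 27 lower) and 0.14 for homo against het (38 higher, 6 lower), while that over all genes tested lay between -0.00097 and 0.00011. The comparisons share their libraries and are not independent. Leaving out 1 library at a time gave -0.092 (without WT-1) to 0.38 (without WT-2) for the first, -0.23 to 0.25 (without WT-2) for the second and -0.0056 (without homo-4) to 0.28 for the third. Each of the 3 medians changed sign when some single library was left out. Without WT-2 the log2 fold change of homo against WT was 3.15 for Tgtp1 (0.83 with it), 3.18 for Cxcl9 (1.73 with it), 1.13 for Gbp2 (0.44 with it) and 0.94 for Iigp1 (-0.3 with it), all with an edgeR adjusted p of 1.

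**Figure D5:**
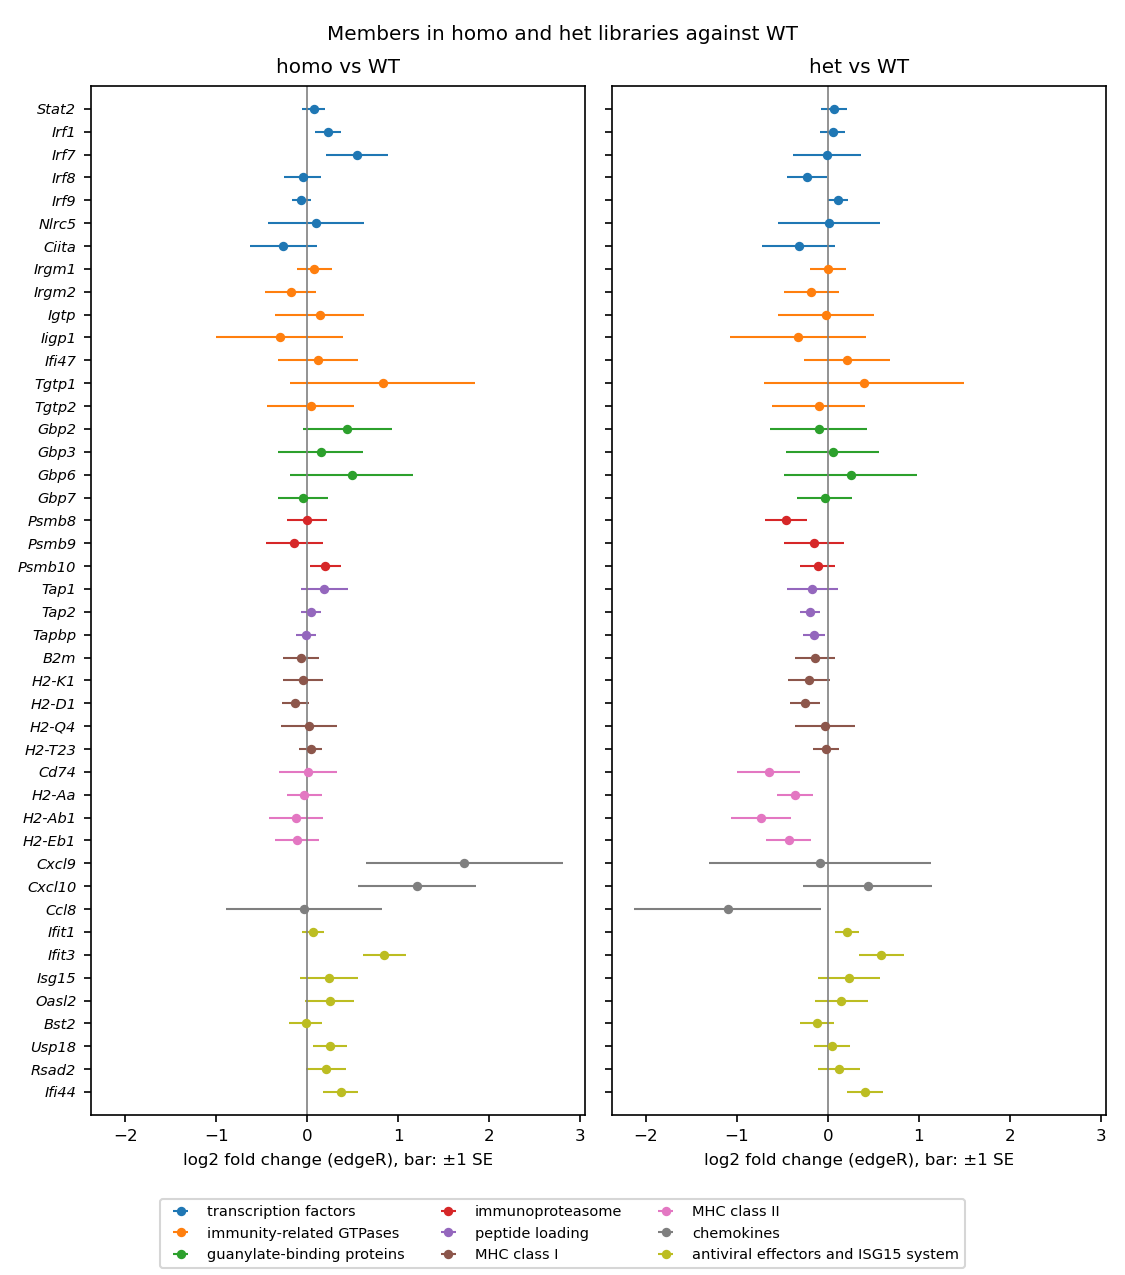
Log2 fold changes of the 44 genes in homo (left) and het (right) libraries against WT from the edgeR fit, with bars of 1 SE, coloured by role. Most bars cross 0; Ifit3 lies at 0.85 and 0.59, and all 4 MHC class II genes lie below 0 in het.

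MHC class II had the largest median difference between het and WT of the 9 roles. All 4 genes were lower in het than in WT, with a median log2 fold change of -0.54 (range -0.73 to -0.36) and a smallest unadjusted p of 0.0521 (H2-Ab1), and all 4 were higher in homo than in het, with a median of 0.47. The 5 MHC class I, 3 immunoproteasome and 3 peptide loading genes were also all lower in het than in WT, with medians of -0.14, -0.15 and -0.17, and all higher in homo than in het. None of these was called, and the edgeR adjusted p was 1 and 0.999. The het libraries had a summed level of 105 ± 15.8 CPM (SD, n = 3), the WT libraries 155 ± 65.4 CPM (SD, n = 3) and the homo libraries 150 ± 39.0 CPM (SD, n = 4). The genotypes overlapped, since WT-3 (112) lay within the het range of 87.7 to 118, and without WT-2 the het against WT value of H2-Eb1 went from -0.43 to -0.051.

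Most leukocyte markers also had a log2 fold change below 0 in het against WT, as did 8641 of all 17197 genes tested, and none was called. Other lists leaned the same way, with 4 of 4 endothelial, 3 of 3 horizontal basal cell and 4 of 5 immature neuron and progenitor markers below WT. The mature neuron (3 of 6), ciliated cell (1 of 4) and supporting cell (0 of 4) markers did not. All 6 B cell markers were below WT, and their sum was 3.62 to 5.73 CPM in het, 6.05 to 7.94 in WT and 5.16 to 13.2 in homo libraries. Of the T cell markers 5 were tested and 4 were below WT, with sums of 3.24 to 4.78 CPM in het, 4.22 to 7.47 in WT and 4.83 to 7.12 in homo libraries. The 3 pan-leukocyte genes were all below WT, at 38.5 to 43.8 CPM in het, 43.5 to 57.9 in WT and 42.6 to 53.7 in homo libraries. Of the macrophage and monocyte markers 6 of 10 were below WT, at 126 to 137 CPM in het, 129 to 164 in WT and 129 to 155 in homo libraries, and of the dendritic cell markers 5 of 6 tested, at 21.4 to 23.5 CPM in het, 21 to 27 in WT and 22.6 to 26.1 in homo libraries. All 5 neutrophil markers tested were below WT. In het against WT, 2 macrophage and monocyte, 2 B cell, 1 T cell and 1 neutrophil marker had an unadjusted p under 0.05 in edgeR, against 1.92% of all genes. Among them were Cd3d (-2.52, SE 0.69), Cd79b (-1.05, SE 0.47), C1qb (-0.36, SE 0.13) and C1qc (-0.31, SE 0.13), each with an edgeR adjusted p of 1. In homo against het, 6 of 6 B cell, 4 of 5 T cell and 2 of 5 neutrophil markers were higher. There 3 B cell and 2 T cell markers had such a p, against 2.48%. No gene of these lists was at 0 in every library, and their part in the class II values was not tested.

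The chemokines had the largest medians in homo, 1.21 against WT and 1.07 against het. The first is the value of Cxcl10, which was at 5.09 CPM in homo-4 and 0.72 to 1.63 CPM in the other homo libraries. The second is that of Ccl8, which was at 0.98 CPM in homo-1 and 0.83 CPM in homo-4, against 0.31 and 0.127 CPM in homo-2 and homo-3.

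The rest of the pathway was read from lists of 121 genes, 104 of which were tested, and none was called in any contrast by edgeR, DESeq2 or limma. Of 12 interferon genes, 8 had no count in any library, among them Ifnb1 and 4 Ifna genes, and none had enough counts to be tested. Ifng, the type II interferon, had 0, 3 and 2 counts in WT, 0 in all het and 6, 1, 0 and 0 in homo libraries, and Ifnz had 1 count in het-2 and 1 in homo-3. The receptors, kinases and proximal transcription factors (14 genes, 14 tested) were even, at 810 to 888 CPM in sum, and WT-2 was above the other WT libraries for 7 of the 14, with a median difference of -0.011. Jak1, a kinase, was at 166 to 188 CPM and Stat3, a transcription factor, at 106 to 136 CPM.

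Inhibitors of interferon signalling (7 tested) summed to 324 to 351 CPM, with Trim24 at 135 to 162 CPM and Ptpn2 at 51.0 to 63.1 CPM. Nucleic acid sensors (12 tested) summed to 211 to 280 CPM, with Adar at 56.8 to 81.3 CPM and Ddx58 at 48.4 to 58.5 CPM. In homo against het, Zbp1 (0.94, SE 0.38) and Tmem173 (0.32, SE 0.13) had an unadjusted p under 0.05, with an edgeR adjusted p of 0.999. The 42 further interferon-stimulated genes were all tested, and their median log2 fold change was 0.083 for homo against WT (32 higher, 10 lower), with Oasl1 at 0.79 (SE 0.36, unadjusted p 0.044, edgeR adjusted p 1). In het against WT, Mx2 (0.54, SE 0.24) and the constitutive proteasome subunit Psmb5 (-0.29, SE 0.13) had an unadjusted p under 0.05, as H2-Ob (0.75, SE 0.34) did in homo against het, and none was called. In WT-2, 30 of the 42 were above the other WT libraries (median 0.26 on the log2 scale, against 0.44 for the antiviral members), in homo-1 38 and in homo-4 36 were above the other homo libraries, and in homo-2 10 and in homo-3 5 were. Of these genes, Ly6e was at 219 to 343 CPM and Trafd1 at 74.0 to 101 CPM. Of the 34 further antigen presentation genes, 29 were tested, with a median of 0.01 for homo against WT. The chaperones Pdia3 and Calr were at 517 to 681 CPM and 462 to 640 CPM, and WT-2 stood 0.084 above the other WT libraries by median.

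Other measures followed the libraries that were high only in part. Pan-leukocyte genes (Ptprc, Laptm5 and Coro1a) summed to 57.9 CPM in WT-2 and 53.7 in homo-1, and to 38.5 to 49.8 CPM in the other 8 libraries, homo-4 included (49.8). Macrophage and monocyte markers summed to 164 CPM in WT-2, 155 in homo-1 and 149 in homo-4, against 126 to 145 in the others. T cell markers were at 7.47 CPM in WT-2, 7.12 in homo-2, 7.05 in homo-1 and 5.85 in homo-4, against 3.24 to 4.83 in the others, so that homo-2 was high for T cells and low for the interferon genes. All 4 hemoglobin genes of the erythroid list were at 0 in every library, and its other gene, Alas2, was at 8.84 to 32.1 CPM. The treatment of multi-mapping reads is not given in the sources used here, so these zeros do not show that hemoglobin RNA was absent. Dendritic cell (21 to 27.0 CPM), B cell (3.62 to 13.2), natural killer cell (1.75 to 3.75) and neutrophil markers (12.2 to 29.5) reached their highest sums in WT-1, homo-2, WT-2 and WT-2. Slc17a7, a glutamate transporter of neurons that was named after its values were seen, was at 5.41 CPM in homo-4 and 0.486 to 2.29 CPM elsewhere. The part of these in the pattern was not tested.

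Both sexes were present, by counts of the Y genes. These were found in homo-2, homo-3, het-1 and WT-1. The 3 high libraries were all without Y counts, and so were WT-3, het-2 and het-3. By median over the 44 genes, WT-3 and het-2 were below the others of their genotype (-0.36 and -0.16), and het-3 was level (0.032). The value of WT-3 is set against a mean that holds the high WT-2. The roles split in het-2, which was above the other het libraries for immunity-related GTPases (0.35) and guanylate-binding proteins (0.52). It was below them for MHC class I (-0.34) and class II (-0.4). With genotype kept in the edgeR fit, libraries with Y counts were lower for 43 of the 44 genes, with a median log2 fold change of -0.38. Of all 17197 genes tested, 8924 were lower, with a median of -0.0053. None of the 44 was called, against 0.0349% of all genes tested, and 16 had an unadjusted p under 0.05, against 3.24%. Among these were Tgtp2 (-1.0, SE 0.26), Tap1 (-0.55, SE 0.16) and B2m (-0.39, SE 0.12), each with an edgeR adjusted p of 1. Leaving out 1 library at a time moved the count of 16 to between 4 (without WT-1) and 31 (without het-1) and the median to between -0.55 and -0.24. The 44 genes vary together, so their count is not that of 44 separate measurements, and this comparison was made after the pattern had been seen. Within homo, the libraries with Y counts were homo-2 and homo-3, the low ones already described. The genes were also listed with these libraries known, so these values are a description and not a test. With this term in the fit, the genotype comparisons still called none of the 44.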

How the data were processed

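RNA-seq libraries of whole MOE were made by the authors with a directional kit after poly(A) selection. Per the submitters' processing notes, Trimmomatic 0.36, HISAT2 2.1.0, featureCounts of Subread 1.6.2 and DESeq2 1.20.0 were used, on mm10 (GRCm38). The annotation, strand setting and treatment of multi-mapping reads are not given in the sources used here. The deposited values are raw counts per gene, used for all main results, and a table of normalized signal (the authors' counts divided by a size factor per library), used as log2 of value plus 1 in limma only. Groups came from the sample titles.

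The main fit used edgeR 4.0.16 in R 4.3.3 (filterByExpr with minimum count 10 and minimum total 15, TMM, robust quasi-likelihood fit of all 10 libraries on genotype, two-sided tests, Benjamini-Hochberg over 17197 genes). The genes tested held 99.97% of counts. DESeq2 1.42.0 and limma 3.58.1 were alternatives, with RLE factors, other filters, a replicate block and leaving out each library. The fit was tested on simulated data. CPM used library totals, log2 CPM used TMM and a prior of 2 counts, and levels were ranked between members per kb of exon. Positions and exon lengths are from GENCODE M21 on mm10, 1-based.

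The members and lists were chosen with earlier results of these data known. Values in every library were given for the 2 members of each role with the highest level per length, members with an unadjusted p under 0.05 in a genotype contrast, and members with a mean CPM of at least 1 whose highest library was over 2 times the median library (25 members). Pathway genes named are the 2 of each list with the highest mean CPM. Ifnb1, Ifit3b, Slc17a7 and some pathway and marker genes with an unadjusted p under 0.05 were named after their values were seen, and others are not reported here. Ly6g was on the neutrophil list but had no row in the count table. Same-numbered WT and het libraries deviated together (correlations 0.326, 0.285 and 0.235), and differently numbered ones did not (-0.188 to -0.0752). Same-numbered WT and homo libraries did not either (-0.0995, -0.0122 and -0.0734). Some differently numbered libraries correlated to a like degree (WT-3 with homo-4 0.269, het-1 with homo-2 0.247). The sample titles state no pairing, so whether numbers mark pairs is not known. No libraries of 1 genotype were alike within sampling noise (13.9 to 47 chi-square units for each degree of freedom).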

Additional observations from a re-analysis of the deposited data

How the results depend on the processing

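The count of members called was 0 in every contrast under DESeq2, limma, RLE factors, no filter, a mean CPM of at least 1, the replicate block and a term for Y gene counts (the last added after seeing the data). Leaving out each library gave 0 to 1 for homo against WT, the 1 being Ifit3 without WT-2, and 0 elsewhere. The replicate block changed no call among the members. Over all genes it called 19 instead of 12 for homo against WT, 24 instead of 13 for homo against het and 22 instead of 12 over all genotypes. In the WT and het libraries alone (added after seeing the data), the block called 3 instead of 0 for het against WT. On TMM-scaled CPM, homo-1 held the highest value of 8 members instead of 5, het-1 of 2 instead of 1 and homo-4 of 9 instead of 13, while WT-2 held 24 either way. Of the fold changes of the 25 named members in 3 contrasts, 20 moved by more than the within-genotype SD or became called without WT-2, and 1, Cxcl10 in homo against het (0.78 to -0.17), moved so far under the block. Depth limits the chemokines and interferon genes most, since Ccl8 had 1 to 40 counts.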
